A study of Mus musculus with 16 samples.

Results

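The genes described here are 9 cytosolic sensors of foreign nucleic acid and their adaptors, Rigi, Ifih1, Dhx58, Mavs, Cgas, Sting1, Zbp1, Eif2ak2 and Adar. They were taken by name, or by the older name Ddx58 for Rigi, from the gene symbols of the array's annotation, and all 9 were measured, each by 1 feature, among 19938 genes with a symbol. RNA of mouse bone-marrow derived macrophages, grown from marrow with medium conditioned by L cells, was hybridised to 16 one-colour Affymetrix gene arrays. All cells, controls included, carried the H3.3-HA knock-in, an HA tag on the histone variant H3.3, and no other genotype was used. The 6 groups were pretreated macrophages at 0 h (4 arrays), 3 h (2 arrays) and 6 h (2 arrays) of interferon-gamma, and naive macrophages at 0 h (4 arrays), 3 h (2 arrays) and 6 h (2 arrays). Pretreated cells had, from their array names, met interferon before the time course, while the labels state no dose or length for that first exposure and no rest after it. Whether arrays of 1 group came from separate animals or cultures is not stated, so the p-values rest on a spread between samples that may be technical.

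These proteins tell cells that RNA or DNA stands where it should not. RIG-I (Rigi) and MDA5 (Ifih1) bind viral double-stranded RNA and, regulated by the related LGP2 (Dhx58), signal through MAVS on mitochondria, whereas cGAS binds cytosolic DNA and makes a cyclic dinucleotide that activates STING. ZBP1 binds Z-form nucleic acid and can start necroptosis and apoptosis, the kinase PKR (Eif2ak2) stops translation when it binds double-stranded RNA, and ADAR1 (Adar) edits adenosines in the cell's own double-stranded RNA so that these sensors do not respond to it. Many of these genes are known to be induced by interferons, whose signals reach DNA through the ISRE, read by ISGF3 and the IRFs, and the GAS element, which serves interferon-gamma.

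Promoter windows of 250 bases before and 50 after a transcription start were read from RefSeq (build GRCm38.p6). For 6 of the 9 genes 8 windows were used. Sting1 was left out of the search, and no window was found for Zbp1 and Dhx58. They were searched on both strands for the ISRE core GAAANNGAA and for the GAS letters TTCNNNGAA, which are their own reverse complement. Of all 32851 windows in the table, 8.6% held the ISRE core, 8.3% the GAS letters and 15.8% either. Among the members, 4 windows held the ISRE core and 2 held the GAS letters, in Ifih1, Rigi, Eif2ak2 and Adar. These 4 are shown because they carry a match, and Mavs because it is the member that fell on the arrays. The windows are chr2:62646206-62646505 (minus strand) for Ifih1, chr4:40239776-40240075 (minus strand) for Rigi, chr17:78882523-78882822 (minus strand) for Eif2ak2, chr3:89730468-89730767 (plus strand) for Adar and chr2:131233813-131234112 (plus strand) for Mavs, each read 5′ to 3′ along its gene, with matches in capitals.
Ifih1: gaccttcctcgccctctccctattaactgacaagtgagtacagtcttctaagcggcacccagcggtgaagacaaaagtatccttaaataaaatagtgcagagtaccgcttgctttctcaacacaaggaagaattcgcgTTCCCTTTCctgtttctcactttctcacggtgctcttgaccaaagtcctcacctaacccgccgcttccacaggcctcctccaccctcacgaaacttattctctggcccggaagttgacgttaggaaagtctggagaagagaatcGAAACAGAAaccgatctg
Rigi: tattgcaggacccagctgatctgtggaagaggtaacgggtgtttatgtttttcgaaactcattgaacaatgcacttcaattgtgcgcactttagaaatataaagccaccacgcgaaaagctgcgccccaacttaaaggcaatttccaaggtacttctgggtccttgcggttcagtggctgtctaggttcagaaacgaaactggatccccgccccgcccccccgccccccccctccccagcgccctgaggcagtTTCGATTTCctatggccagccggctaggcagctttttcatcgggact
Eif2ak2: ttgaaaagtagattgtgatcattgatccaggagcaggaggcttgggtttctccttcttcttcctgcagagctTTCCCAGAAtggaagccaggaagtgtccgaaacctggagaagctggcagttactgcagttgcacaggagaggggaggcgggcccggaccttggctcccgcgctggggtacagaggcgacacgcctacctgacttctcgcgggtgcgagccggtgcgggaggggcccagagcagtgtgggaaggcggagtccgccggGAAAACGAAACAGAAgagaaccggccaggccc
Adar: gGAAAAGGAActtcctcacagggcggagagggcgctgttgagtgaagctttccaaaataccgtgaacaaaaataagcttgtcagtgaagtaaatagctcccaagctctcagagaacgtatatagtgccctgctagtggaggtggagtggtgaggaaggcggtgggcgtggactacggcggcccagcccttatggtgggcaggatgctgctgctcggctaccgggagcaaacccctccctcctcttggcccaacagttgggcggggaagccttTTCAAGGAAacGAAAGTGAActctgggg
Mavs: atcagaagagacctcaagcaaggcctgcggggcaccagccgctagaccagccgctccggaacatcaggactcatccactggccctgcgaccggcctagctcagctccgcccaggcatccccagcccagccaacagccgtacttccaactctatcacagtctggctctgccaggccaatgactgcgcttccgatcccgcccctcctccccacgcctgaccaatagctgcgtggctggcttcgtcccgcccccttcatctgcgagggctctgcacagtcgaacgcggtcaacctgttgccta

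In the Ifih1 window the ISRE core lay at -112 to -104 on the opposite strand and again at 33 to 41 after the start. In Rigi it lay at 4 to 12 on the opposite strand. In Eif2ak2 a pair of overlapping ISRE cores lay at 19 to 27 and 25 to 33, and the GAS letters at -178 to -170. The Adar window held the ISRE core at -249 to -241 and at 34 to 42, and the GAS letters at 23 to 31. The other 2 Adar windows, and those of Cgas and Mavs, held neither motif. A match says only that these letters are there, and no binding was measured in these arrays.

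**Figure D1:**
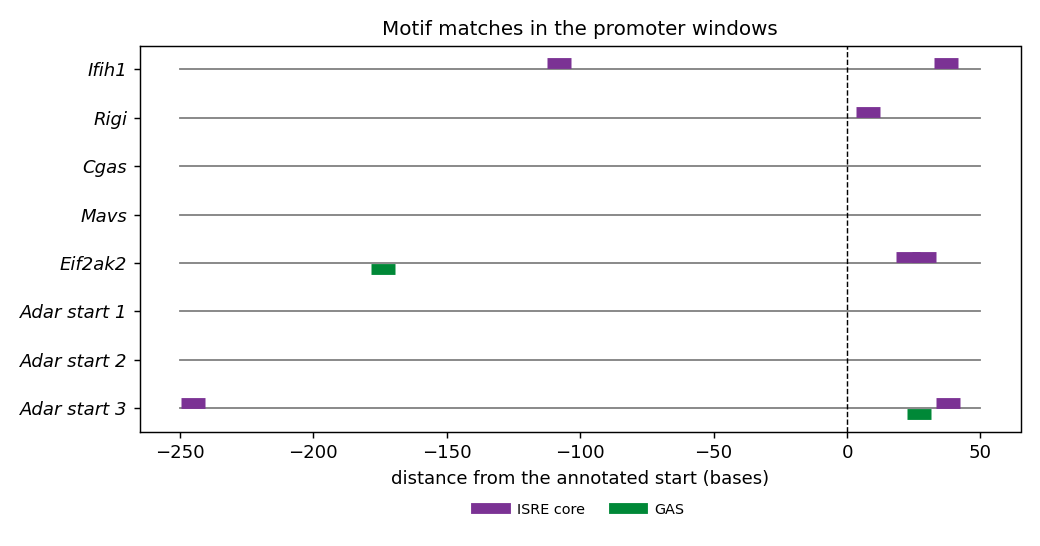
Motif matches in the 8 RefSeq promoter windows of 6 members, drawn by distance from the transcription start in bases (x axis), with the ISRE core in purple and the GAS letters in green. Matches stand in the windows of Ifih1, Rigi and Eif2ak2 and in the third Adar window, most of them within 50 bases after the start, and none in those of Cgas and Mavs.

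The arrays were numbered in 2 sets of 8 in their titles, and medians of the deposited log2 values lay between 7.151 and 7.226 in set 1 and between 6.886 and 6.997 in set 2. Set 1 held the 6 h arrays and set 2 the 3 h arrays, each with its own 0 h arrays, so values were compared within a set, and time and set cannot be told apart. Arrays of 1 group and set correlated at 0.9896 to 0.995 across genes (median 0.9919, 8 pairs). Markers of macrophages lay above a log2 level of 6.5, taken as the limit of dim signal, for 8 of 8 genes, with group means of their average between 12.55 and 12.72. Below that limit lay 3 of 3 NK cell, 2 of 2 B cell, 2 of 3 T cell, 3 of 4 neutrophil, 1 of 4 dendritic cell and 1 of 3 fibroblast markers. Group means of these lists lay between 4.55 and 5.22 (NK cell), 4.51 and 5.04 (B cell), 5.63 and 6.04 (T cell), 5.67 and 6.24 (neutrophil), 6.45 and 6.93 (dendritic cell), and 7.14 and 7.49 (fibroblast). No unstimulated cells were taken at 3 or 6 h, so interferon and time in culture cannot be told apart. In bulk RNA, fewer cells of a type and less RNA per cell cannot be told apart either, and 1 feature a gene does not separate isoforms such as those of Adar.

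The first response of naive macrophages to interferon-gamma was the first comparison. At 3 h, 7 of the 9 genes rose (Zbp1, Eif2ak2, Sting1, Ifih1, Dhx58, Adar and Rigi) and 1, Mavs, fell, and Cgas did not pass the test. Over all genes 3.37% were called higher and 2.09% lower. At 6 h, 6 rose and Mavs fell, where 7.48% of all genes were called higher and 10.8% lower, and Rigi and Cgas did not pass. The median log2 change of the 9 was 1.31 at 3 h, where that of all genes was 0, and 1.13 at 6 h, where that of all genes was -0.01. Values below are log2 levels, changes are log2 differences with the standard error of 1 limma fit to all 16 arrays, and adjusted p-values are limma's with Benjamini-Hochberg adjustment over the 19938 genes, called under 0.05. Percentages of all genes called are for adjusted p. Where a count at an unadjusted p under 0.05 is given, the share of all genes under it is not, so no excess is read from such counts.

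Among the RNA helicases, Ifih1, the sensor of long double-stranded RNA, stood at 11.40 and 11.81 in naive 3 h arrays, against 10.16 and 10.32 in the naive 0 h arrays of the same set. At 6 h it stood at 12.36 and 12.02, against 10.94 and 10.90 at 0 h. Both stimulated groups lay wholly above their 0 h arrays, with rises of 1.37 ± 0.15 (2.59-fold, limma adjusted p = 9.18e-05) at 3 h and 1.27 ± 0.15 (2.41-fold, limma adjusted p = 8.22e-05) at 6 h. Dhx58, which lacks the signalling domains of its relatives and tunes them, stood at 11.77 and 12.11 in naive 3 h arrays, against 10.39 and 10.88 at 0 h. In 6 h arrays it stood at 12.06 and 12.20, against 10.97 and 11.03 at 0 h. Again no array overlapped, and Dhx58 rose by 1.31 ± 0.16 (2.48-fold, adjusted p = 0.000198) and by 1.13 ± 0.16 (2.19-fold, adjusted p = 0.000271). Rigi, the sensor of RNA with 5′ triphosphate ends, stood at 11.99 and 12.32 in naive 3 h arrays, against 11.24 and 11.31 at 0 h, and at 12.14 and 11.90 in 6 h arrays, against 11.83 and 11.85 at 0 h. Its arrays did not overlap at either time, but the distance at 6 h was small. Rigi rose by 0.88 ± 0.14 (1.83-fold, adjusted p = 0.00214) at 3 h, and its difference of 0.17 ± 0.14 at 6 h did not pass (adjusted p = 0.547).

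Mavs, the mitochondrial adaptor of these helicases, moved the other way. It stood at 10.49 and 10.34 in naive 3 h arrays, against 11.03 and 10.99 at 0 h, and at 10.09 and 10.57 in naive 6 h arrays, against 11.38 and 11.68 at 0 h. All 4 stimulated arrays lay below all 4 naive 0 h arrays. The fall was 0.59 on the log2 scale (log2 change -0.59 ± 0.15, to 0.664 of the 0 h level, limma adjusted p = 0.0389) at 3 h and was 1.2 (-1.20 ± 0.15, to 0.437, adjusted p = 0.000138) at 6 h. The call at 3 h was lost when any 1 of its 4 arrays was left out, with adjusted p-values of 0.101 (replicate 1) and 0.269 (replicate 2) for the naive 3 h arrays, and of 0.175 (replicate 3) and 0.146 (replicate 4) for the naive 0 h arrays. Counting arrays outside this comparison, which share the fit, the 3 h call was lost without 10 of the 16. It was also lost with all features (limma adjusted p = 0.0649) and with quantile normalization (limma adjusted p = 0.0521). The call at 6 h held without any 1 array.

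In the DNA arm, Cgas, the sensor enzyme, stood at 7.6 and 8.6 in naive 3 h arrays, against 7.20 and 7.94 at 0 h, and at 8.25 and 7.72 in 6 h arrays, against 7.16 and 7.01 at 0 h. The 3 h arrays overlapped their 0 h arrays and the 6 h arrays did not. Differences of 0.53 ± 0.34 (adjusted p = 0.569) and 0.90 ± 0.34 (adjusted p = 0.0939) did not pass, and its standard error was the largest of the 9. The 6 h difference passed with a block for arrays numbered 1 to 4 and 5 to 8 within each set, and in set 1 alone (lowest limma adjusted p = 0.00756). Sting1, the adaptor that binds the product of cGAS, stood at 13.16 and 13.11 in naive 3 h arrays, against 11.70 and 11.74 at 0 h, and at 13.00 and 12.96 in 6 h arrays, against 11.58 and 11.91 at 0 h. Arrays of each stimulated group were close to each other and well above their 0 h arrays. Sting1 rose by 1.42 ± 0.12 (2.67-fold, limma adjusted p = 1.23e-05) at 3 h and by 1.23 ± 0.12 (2.35-fold, adjusted p = 1.77e-05) at 6 h.

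Zbp1 had the largest change of the 9 genes at both times. It stood at 11.57 and 11.88 in naive 3 h arrays, against 7.92 and 8.73 at 0 h, and at 12.63 and 12.79 in naive 6 h arrays, against 9.59 and 9.90 at 0 h. The groups were far apart, and the naive 0 h arrays themselves differed between sets. Zbp1 rose by 3.40 ± 0.21 (10.5-fold, limma adjusted p = 1.05e-06) at 3 h, the rise of rank 32 among all 19938 genes, and by 2.97 ± 0.21 (7.82-fold, adjusted p = 1.77e-06) at 6 h, rank 70.

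Of the effectors, Eif2ak2 stood at 11.47 and 11.74 in naive 3 h arrays, against 10.01 and 10.34 at 0 h, and at 12.03 and 11.93 in 6 h arrays, against 10.68 and 10.79 at 0 h. With no overlap at either time, it rose by 1.43 ± 0.14 (2.70-fold, limma adjusted p = 5.27e-05) and by 1.24 ± 0.14 (2.37-fold, adjusted p = 7.83e-05). Adar, which acts against the same sensors by editing, stood at 10.82 and 10.99 in naive 3 h arrays, against 9.73 and 9.90 at 0 h, and at 10.97 and 10.66 in 6 h arrays, against 10.01 and 10.02 at 0 h. It rose at both times without overlap, by 1.09 ± 0.13 (2.13-fold, adjusted p = 0.000221) and by 0.80 ± 0.13 (1.74-fold, adjusted p = 0.000961). Fcgr1, on the macrophage marker list and itself known to be induced by interferon-gamma, rose too, by 1.80 ± 0.18 at 3 h and 1.54 ± 0.18 at 6 h. Cd14 of that list fell (-0.87 ± 0.23) and Xcr1 of the dendritic cell list rose (1.10 ± 0.28) at 6 h, while no T, B, NK, neutrophil or fibroblast marker passed the limma test in either comparison (0 at an unadjusted p under 0.05 too). The part of these markers in the members' changes was not tested.

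**Figure D2:**
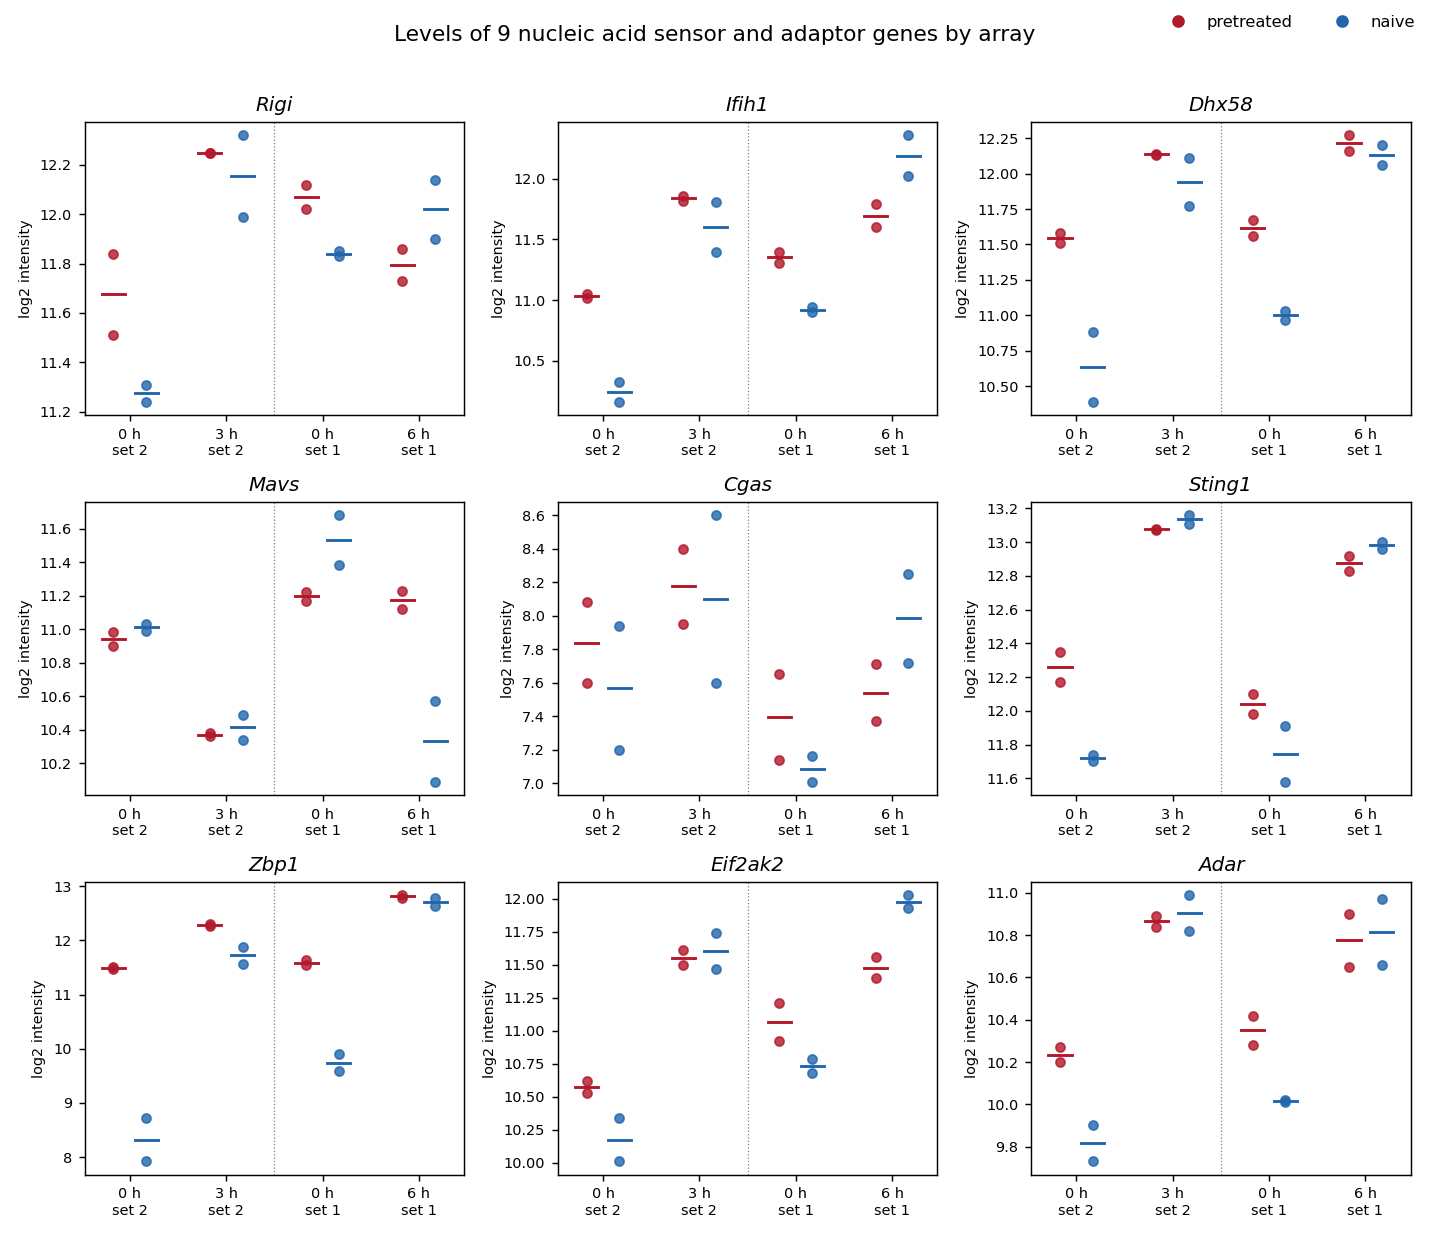
Log2 level (y axis) of each of the 9 genes on every array, with pretreated cells in red left of naive cells in blue and a line at the mean of 2 arrays, for set 2 (0 and 3 h) and then set 1 (0 and 6 h). Zbp1 in naive 0 h arrays (7.92 to 9.90) lies far below all its other arrays, and Mavs is the gene whose naive 3 and 6 h arrays (10.09 to 10.57) lie below its 0 h arrays (10.99 to 11.68).

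The surrounding pathway was described by 7 lists with 77 measured genes. In naive cells 15 of the 77 rose and 0 fell at 3 h by the limma test, and 25 rose and 8 fell at 6 h, with a median log2 change of 0.03 at both times. Over all genes 3.37% were called higher and 2.09% lower at 3 h, and 7.48% higher and 10.8% lower at 6 h, so the share of the lists that fell at 6 h was near that of all genes. Of 16 partners and regulators of the helicases, 4 rose at each time, led by Nlrc5, a class I transactivator that also restrains RIG-I signalling (2.35 ± 0.14 at 3 h, 2.26 ± 0.14 at 6 h), and Ddx60, a helicase linked to RIG-I (1.98 ± 0.24 and 1.08 ± 0.24). The third at 3 h was Rnf135, which ubiquitinates RIG-I (0.98 ± 0.18), and at 6 h Tomm70a, a mitochondrial import receptor that works with MAVS (0.86 ± 0.17). Of 13 kinases, TRAFs and transcription factors below MAVS and STING, 4 rose at 3 h and 7 at 6 h. They included Irf7, which drives type I interferon genes (1.82 ± 0.20 and 1.28 ± 0.20), and the TBK1 adaptors Tbkbp1 (0.89 ± 0.17 and 1.31 ± 0.17), Azi2 (0.56 ± 0.13 at 3 h) and Tank (1.11 ± 0.22 at 6 h).

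Of 15 DNA sensing partners and STING regulators, 3 rose at 3 h, and 4 rose and 4 fell at 6 h. Ifi205, of the p200 family, rose by 4.67 ± 0.16 and 4.39 ± 0.16, and Rhbdf2, an inactive rhomboid that supports STING trafficking, by 1.01 ± 0.12 and 1.13 ± 0.12. Trim56, a ubiquitin ligase of this pathway, rose at 3 h (0.66 ± 0.10), and Nlrc3, a negative regulator of STING, fell at 6 h (-1.13 ± 0.13). Of 11 nucleases that clear the cell's own nucleic acids, 2 rose at 3 h, Trex1 (1.34 ± 0.16) and Samhd1 (1.10 ± 0.12). At 6 h 5 rose and 2 fell, with Dnase1l3 (3.15 ± 0.39, against a naive 0 h level of 5.48 that lay below the dim limit), Rnaseh2b (1.08 ± 0.21) and Trex1 (1.02 ± 0.16) in front. Of 6 partners of ZBP1 in cell death, Mlkl, which breaches the membrane in necroptosis, rose at both times (1.46 ± 0.17 and 2.30 ± 0.17), and Cflar, which restrains caspase-8, at 6 h (1.25 ± 0.21). Of 10 genes around eIF2alpha (kinases, phosphatase subunits, their regulators, Atf4 and Ddit3), Ppp1r15b, of the phosphatase, rose at both times (0.55 ± 0.14 and 1.42 ± 0.14). At 6 h Dnajc3, an inhibitor of eIF2alpha kinases, rose (1.03 ± 0.19) and Prkra, an activator of PKR, fell (-1.20 ± 0.19), within 3 that rose and 2 that fell. None of 6 RNA editing relatives and partners was called by limma at 3 or 6 h (1 at an unadjusted p under 0.05 at each time), with medians of -0.03 and -0.04.

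Pretreated cells before restimulation were then set against naive cells at 0 h, with 4 arrays each, which compares cells that had met interferon before with cells that had not. Zbp1, Dhx58, Ifih1 and Sting1 were higher in pretreated cells and no member was lower, where 0.808% of all genes were called higher and 0.155% lower. The median log2 difference of the 9 was 0.38, and that of all genes 0.02. By arrays, 7 members lay wholly higher in pretreated than in naive cells within both sets and Mavs wholly lower, where 4.26% of all genes did so higher and 4.11% lower, and Cgas overlapped.

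Zbp1 stood at 11.54, 11.63, 11.51 and 11.47 in pretreated 0 h arrays, against 9.59, 9.90, 7.92 and 8.73 in naive 0 h arrays. The pretreated arrays were close to each other across both sets, while the naive arrays of set 2 were lower than those of set 1. The difference was 2.50 ± 0.15 (5.67-fold, limma adjusted p = 1.93e-06), rank 17 of all genes, with 1.84 in set 1 and 3.17 in set 2, and it passed in each set alone. Dhx58 stood at 11.67, 11.56, 11.51 and 11.58 in pretreated 0 h arrays, against 10.97, 11.03, 10.39 and 10.88 in naive ones. All pretreated arrays were above all naive ones, by 0.76 ± 0.11 (1.70-fold, adjusted p = 0.0034). Ifih1 stood at 11.31, 11.40, 11.05 and 11.02 in pretreated 0 h arrays, against 10.94, 10.90, 10.16 and 10.32 in naive ones. Here too the arrays did not overlap, and the difference was 0.62 ± 0.11 (1.53-fold, adjusted p = 0.0108). Sting1 stood at 11.98, 12.10, 12.17 and 12.35 in pretreated 0 h arrays, against 11.58, 11.91, 11.70 and 11.74 in naive ones. Its lowest pretreated array lay just above its highest naive array, and the difference was 0.42 ± 0.08 (1.33-fold, adjusted p = 0.0342).

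The remaining members did not pass. Adar stood at 10.42, 10.28, 10.27 and 10.20 in pretreated 0 h arrays, against 10.01, 10.02, 9.73 and 9.90 in naive ones (0.38 ± 0.09, limma adjusted p = 0.1). Eif2ak2 stood at 10.92, 11.21, 10.53 and 10.62 in pretreated 0 h arrays, against 10.68, 10.79, 10.01 and 10.34 in naive ones (0.37 ± 0.10, adjusted p = 0.175). Both were higher within each set with no overlap, as was Rigi. Rigi stood at 12.12, 12.02, 11.84 and 11.51 in pretreated 0 h arrays, against 11.83, 11.85, 11.24 and 11.31 in naive ones (0.31 ± 0.10, adjusted p = 0.275). Cgas stood at 7.14, 7.65, 7.6 and 8.08 in pretreated 0 h arrays, against 7.16, 7.01, 7.20 and 7.94 in naive ones (0.29 ± 0.24, adjusted p = 0.874). Its arrays overlapped in both sets. Mavs stood at 11.17, 11.22, 10.90 and 10.98 in pretreated 0 h arrays, against 11.38, 11.68, 11.03 and 10.99 in naive ones (-0.20 ± 0.11, adjusted p = 0.73), and in set 2 the groups nearly touched. In each set alone only Zbp1 was called, where 52 (set 1) and 74 (set 2) of all genes were called. Left out in turn, naive 0 h replicate 3 and pretreated 0 h replicate 2 each brought the count to 2, with Ifih1 at adjusted p = 0.0616 and 0.0514 and Sting1 at 0.143 and 0.129, and Sting1 was lost without 14 of the 16 arrays, with an adjusted p up to 0.152. In the 7 pathway lists 5 of 77 genes were higher in pretreated cells and 0 lower, namely Ifi205 (2.54 ± 0.12), Irf7 (1.54 ± 0.14), Nlrc5 (1.18 ± 0.10), Ddx60 (0.90 ± 0.17) and Mlkl (0.79 ± 0.12). Fcgr1 of the macrophage list was higher by 1.10 ± 0.13.

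Restimulated cells were then set against the pretreated cells at 0 h. At 3 h, Eif2ak2, Sting1, Ifih1 and Adar rose against pretreated 0 h cells and none fell, where 1.86% of all genes were called higher and 0.998% lower (8 of the 9 passed an unadjusted p under 0.05). With a block for arrays numbered 1 to 4 and 5 to 8 within each set, 8 were called at 3 h, Zbp1, Rigi and Dhx58 higher and Mavs lower (adjusted p = 0.0159) beside those 4. That fit called more genes in general, 1272 of all 19938 at 3 h, where the main fit called 370 higher and 199 lower. At 6 h, Zbp1, Sting1 and Dhx58 rose and none fell, where 2.89% of all genes were called higher and 2.76% lower (6 at an unadjusted p under 0.05). The median log2 change of the 9 was 0.63 at 3 h (all genes 0) and 0.41 at 6 h (all genes -0.03). These comparisons share no arrays with those of naive cells.

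Sting1 was the member called at both times. It stood at 13.08 and 13.07 in pretreated 3 h arrays, against 12.17 and 12.35 at 0 h, and at 12.92 and 12.83 in pretreated 6 h arrays, against 11.98 and 12.10 at 0 h. The groups did not overlap, with rises of 0.82 ± 0.12 (1.76-fold, limma adjusted p = 0.00219) and 0.83 ± 0.12 (1.78-fold, adjusted p = 0.00123). Zbp1 stood at 12.30 and 12.26 in pretreated 3 h arrays, against 11.51 and 11.47 at 0 h, and at 12.79 and 12.84 in pretreated 6 h arrays, against 11.54 and 11.63 at 0 h. Its arrays were apart at both times, with 0.79 ± 0.21 (1.73-fold, adjusted p = 0.0697) at 3 h, which did not pass, and a rise of 1.23 ± 0.21 (2.35-fold, adjusted p = 0.00363) at 6 h. The 6 h call was lost in a fit with 1 additive term for the array set (0.90, adjusted p = 0.11). Eif2ak2 stood at 11.61 and 11.50 in pretreated 3 h arrays, against 10.53 and 10.62 at 0 h, and at 11.56 and 11.40 in pretreated 6 h arrays, against 10.92 and 11.21 at 0 h. It rose by 0.98 ± 0.14 (1.97-fold, adjusted p = 0.00245) at 3 h and differed by 0.41 ± 0.14 (adjusted p = 0.156) at 6 h, without overlap at either time.

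Of the helicases, Ifih1 stood at 11.86 and 11.82 in pretreated 3 h arrays, against 11.05 and 11.02 at 0 h, and at 11.79 and 11.60 in pretreated 6 h arrays, against 11.31 and 11.40 at 0 h. It rose at 3 h by 0.81 ± 0.15 (1.75-fold, limma adjusted p = 0.0106) and differed by 0.34 ± 0.15 (adjusted p = 0.296) at 6 h. Dhx58 stood at 12.13 and 12.14 in pretreated 3 h arrays, against 11.51 and 11.58 at 0 h, and at 12.16 and 12.27 in pretreated 6 h arrays, against 11.67 and 11.56 at 0 h. Its changes of 0.59 ± 0.16 (adjusted p = 0.0714) at 3 h and 0.60 ± 0.16 (1.52-fold, adjusted p = 0.0412) at 6 h were near in size, and only the second passed. Rigi stood at 12.25 and 12.25 in pretreated 3 h arrays, against 11.84 and 11.51 at 0 h, and at 11.86 and 11.73 in pretreated 6 h arrays, against 12.12 and 12.02 at 0 h. It lay above the 0 h arrays at 3 h and below them at 6 h, and neither 0.57 ± 0.14 (adjusted p = 0.0507) nor -0.28 ± 0.14 (adjusted p = 0.409) passed.

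Adar stood at 10.89 and 10.84 in pretreated 3 h arrays, against 10.27 and 10.20 at 0 h, and at 10.90 and 10.65 in pretreated 6 h arrays, against 10.42 and 10.28 at 0 h. It rose by 0.63 ± 0.13 (1.55-fold, limma adjusted p = 0.0221) at 3 h and differed by 0.42 ± 0.13 (adjusted p = 0.0954) at 6 h. Mavs stood at 10.38 and 10.36 in pretreated 3 h arrays, against 10.90 and 10.98 at 0 h, and at 11.12 and 11.23 in pretreated 6 h arrays, against 11.17 and 11.22 at 0 h. The 3 h arrays lay below those of 0 h (-0.57 ± 0.15, adjusted p = 0.0697), while at 6 h the arrays overlapped (-0.02 ± 0.15, adjusted p = 0.993). Cgas stood at 7.95 and 8.40 in pretreated 3 h arrays, against 7.6 and 8.08 at 0 h, and at 7.71 and 7.37 in pretreated 6 h arrays, against 7.14 and 7.65 at 0 h. It overlapped at both times, with 0.33 ± 0.34 (adjusted p = 0.739) and 0.14 ± 0.34 (adjusted p = 0.974). The 3 h calls of Ifih1 and Adar were lost when any 1 of the 4 arrays of that comparison was left out. With 1 array left out their changes ran from 0.79 to 0.82 (Ifih1) and from 0.60 to 0.66 (Adar). Both calls were also lost with array weights (limma adjusted p = 0.0866 and 0.123). Without naive 0 h replicate 3 or 4, which are outside this comparison but share the fit, Zbp1 and Dhx58 were called too. At 6 h the call of Dhx58 was lost without 12 of the 16 arrays, with an adjusted p up to 0.261.

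**Figure D3:**
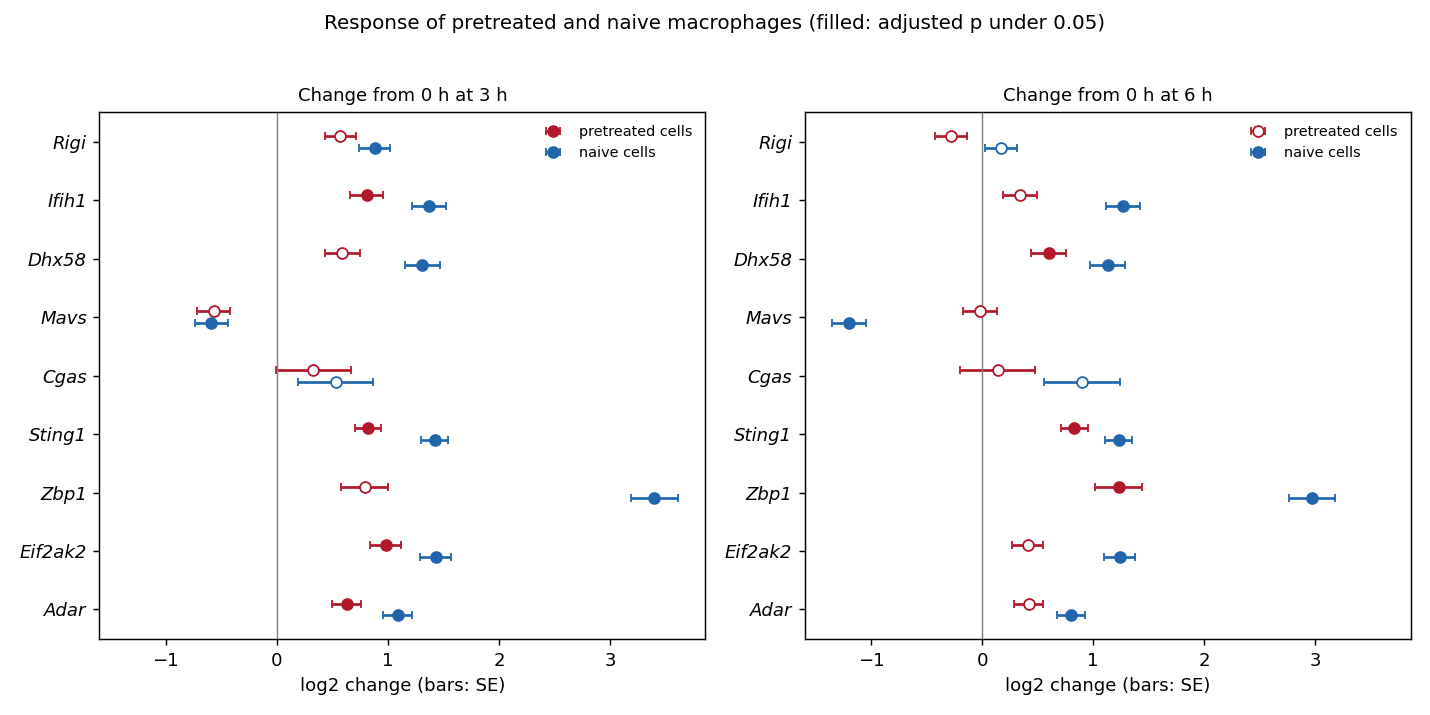
Log2 change (x axis) at 3 h and 6 h against 0 h for each of the 9 genes, with pretreated cells above naive cells, bars for the standard error of the limma fit and filled points for an adjusted p under 0.05. Zbp1 has 0.79 in pretreated and 3.40 in naive cells at 3 h, and Mavs has -0.02 in pretreated and -1.20 in naive cells at 6 h.

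Pretreated and naive cells were also compared at the same time after stimulation. At 3 h no member was called in either direction by limma (1 at an unadjusted p under 0.05), where 0.01% of all genes were called higher and 0.00502% lower. Zbp1 stood at 12.30 and 12.26 in pretreated 3 h arrays, against 11.57 and 11.88 in naive ones, which did not overlap (0.55 ± 0.21, unadjusted p = 0.0202, adjusted p = 1). The other 8 differed by -0.06 ± 0.12 (Sting1) to 0.23 ± 0.15 (Ifih1). At 6 h Mavs alone was called, higher in pretreated cells, where 0.431% of all genes were called higher and 0.271% lower (3 members at an unadjusted p under 0.05). Mavs stood at 11.12 and 11.23 in pretreated 6 h arrays, against 10.09 and 10.57 in naive ones. The pretreated arrays stood near the 0 h level and the naive arrays below it, with a difference of 0.84 ± 0.15 (1.79-fold, limma adjusted p = 0.0313). The call was lost without naive 6 h replicate 1 (0.60, adjusted p = 0.282), pretreated 6 h replicate 1 (0.90, adjusted p = 0.144) or pretreated 6 h replicate 2 (0.78, adjusted p = 0.306).

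Furthest below their naive counterparts at 6 h, without passing, lay Eif2ak2 and Ifih1. Eif2ak2 stood at 11.56 and 11.40 in pretreated 6 h arrays, against 12.03 and 11.93 in naive ones (-0.50 ± 0.14, limma adjusted p = 0.143). Ifih1 stood at 11.79 and 11.60, against 12.36 and 12.02 in naive ones (-0.49 ± 0.15, adjusted p = 0.159). Neither overlapped. Mavs, Eif2ak2 and Ifih1 aside, the remaining 6 differed by -0.45 ± 0.34 (Cgas) to 0.10 ± 0.21 (Zbp1), with adjusted p-values of 0.653 to 0.996. Among these, Cgas, Rigi and Sting1 also lay lower in pretreated cells without overlap. The share of all genes without overlap is not given for this comparison. For Zbp1 the order of mean levels in set 1 was naive 0 h, pretreated 0 h, naive 6 h and pretreated 6 h, and the last pair did not differ beyond their spread. In set 2 it was naive 0 h, pretreated 0 h, naive 3 h and pretreated 3 h, and again the last pair did not pass the test.

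**Figure D4:**
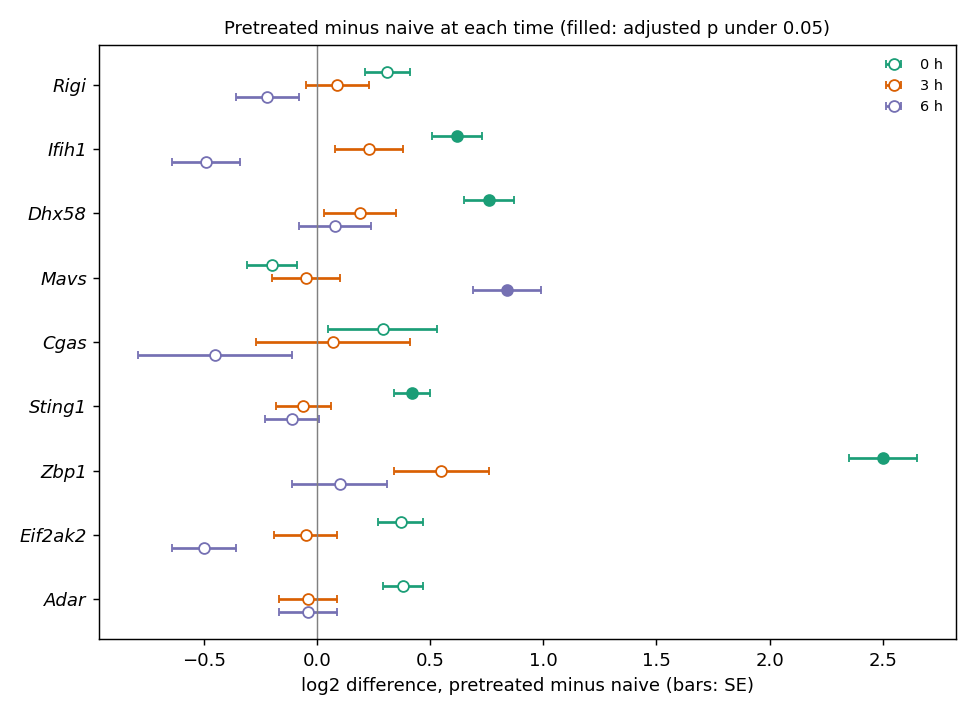
Difference in log2 level between pretreated and naive cells (x axis) at 0, 3 and 6 h for each of the 9 genes, with bars for the standard error of the limma fit and filled points for an adjusted p under 0.05. Zbp1 has 2.50 at 0 h, 0.55 at 3 h and 0.10 at 6 h, while Mavs has -0.20, -0.05 and 0.84.

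The difference between the responses was tested as a contrast in the same fit. At 3 h the response of Zbp1 was lower in pretreated than in naive cells (log2 difference -2.61 ± 0.29, limma adjusted p = 0.00312), the eighth largest absolute difference of all genes, and no other member was called, where 0% of all genes were called higher and 0.0802% lower (6 members at an unadjusted p under 0.05). At 6 h the difference was -1.74 ± 0.29 (adjusted p = 0.049), where 0.0301% of all genes were called higher and 0.115% lower (7 members at an unadjusted p under 0.05). These percentages are for adjusted p and cannot be set against the member counts at an unadjusted p. The 3 h responses of Zbp1 are counted from 0 h levels that already stood 3.17 apart in set 2. Its 6 h responses are counted from 0 h levels 1.84 apart in set 1. The levels of Zbp1 after stimulation were not called different. Without any 1 array the 3 h call held, and it was lost in set 2 alone (-2.61, adjusted p = 0.0945) and with 1 additive term for the array set (-1.95, adjusted p = 0.284), while the 6 h call was lost without 14 of the 16 arrays, with an adjusted p up to 0.214. For Mavs the difference of the 6 h responses was 1.18 ± 0.21 (adjusted p = 0.069), which did not pass. It passed in 3 of 9 other settings, the additive term, the block for arrays numbered 1 to 4 and 5 to 8, and trend and robust variances (adjusted p from 0.0108 to 0.203 over the 9), and without naive 6 h replicate 2 (adjusted p = 0.00813). That of the 3 h responses was 0.02 ± 0.21 (adjusted p = 1).

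Differences of responses for the other 7 ran from -0.72 ± 0.22 (Dhx58) to -0.20 ± 0.48 (Cgas) at 3 h and from -0.93 ± 0.21 (Ifih1) to -0.38 ± 0.19 (Adar) at 6 h. Their adjusted p-values were 1 at 3 h and 0.147 to 0.756 at 6 h. In other settings the 6 h difference of Ifih1 passed with the additive term and with the block (lowest limma adjusted p = 0.0204). That of Eif2ak2 passed with the additive term only (limma adjusted p = 0.0318). The median of the 9 was -0.46 at 3 h, with all genes at 0, and -0.53 at 6 h, with all genes at -0.01. In the 7 pathway lists 2 of 77 genes had a lower 3 h response in pretreated cells, Ifi205 (-2.77 ± 0.23, limma adjusted p = 0.00025) and Nlrc5 (-1.47 ± 0.20, adjusted p = 0.0129), and Ifi205 again had a lower one at 6 h (-1.84 ± 0.23, adjusted p = 0.0108).

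The patterns over the 16 arrays, each gene centred on its mean in the array set, were compared by Pearson's r as a description. The arrays share their groups, so r mostly reads the order of the groups. For Zbp1 the nearest genes were Ifi213 (0.992), Gm4951 (0.991) and Oasl2 (0.986). For Ifih1 they were Trim30d (0.989), Slfn8 (0.983) and Trim30a (0.981), and for Dhx58 Fcgr1 (0.987), H2-T24 (0.981) and Rnf213 (0.978). For Sting1 they were Batf2 (0.991), Irf1 (0.986) and Gbp5 (0.985), and for Adar Rnf31 (0.99), Parp10 (0.985) and Daxx (0.982). Eif2ak2 had Trim21 (0.979), Zup1 (0.978) and Daxx (0.977). Rigi was less close to its nearest, Gm14379 (0.908), Sphk1 (0.906) and Ifit1bl2 (0.896), as was Cgas to Gpatch4 (0.916), Tent4a (0.914) and Fam72a (0.905). The nearest to Mavs were P2ry6 (0.979), Ldb1 (0.969) and Il16 (0.963), and with the other 8 members it had r between -0.865 (Ifih1) and -0.622 (Rigi). Within the members Zbp1 and Dhx58 had the highest r (0.977).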

How the data were processed

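The authors deposited 1 table of log2 intensities for 16 one-colour arrays. Per the labels, the RNA was labelled with biotin by the Affymetrix protocol. How background was corrected and probes normalized and summarised is not given in the sources used here. Titles number the arrays, which gave the 2 array sets. Of 35557 features, 21789 have 1 symbol in the platform annotation, 1621 several and 12147 none, and only the first were named. For 999 genes with several features the brightest was used, which gave 19938 genes, 19856 of them matched by identifier to a current RefSeq table.

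The deposited log2 values were fitted in R 4.3.3 with limma 3.58.1 (lmFit and eBayes), with 1 mean for each of 8 cells of group and set, 8 residual and 4.26 prior degrees of freedom. The 9 comparisons were taken within sets, and at 0 h averaged over both. The number of arrays, 2 per group and set, limits the precision. The script was tested on simulated data. Alternatives were array-set, block, feature, filter, normalization, variance and weighting choices and leaving out each array. Named were all members, per pathway list up to 3 called genes with the largest absolute change (naive 3 h, naive 6 h, pretreated 0 h), and the 3 nearest genes per member. In the differences of responses the called genes of the lists were named for their small number, after their values were seen. The members, lists and tests were chosen with earlier results of these data known. Promoters were searched in Python 3.11.15, and figures drawn with pandas 2.3.3, matplotlib 3.10.9 and numpy 2.4.6.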

Additional observations from a re-analysis of the deposited data

Results flagged for a closer look

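The response of Zbp1 differed between pretreated and naive cells in the contrast that tests this directly, by -2.61 at 3 h (log2 changes of 0.79 in pretreated and 3.40 in naive cells) and by -1.74 at 6 h (1.23 in pretreated and 2.97 in naive cells). The 0 h arrays from which these responses are counted averaged 11.49 in set 2 and 11.58 in set 1 in pretreated cells, against 8.33 in set 2 and 9.74 in set 1 in naive cells. The part of that spread between the sets in either difference was not tested. In the 18 groups of 4 arrays at 0 h, 9 genes in pretreated and naive cells each, no single array stood apart by Dixon's test. Each group held 2 arrays of each set, and the values were not centred by set. Where the sets differ in level the test can hardly mark a single array. Its usual rate of about 1 in 20 groups then does not hold, and no conclusion is drawn from it.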

How the results depend on the processing

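Of 81 gene and comparison pairs, 29 were called. Of these 29, 21 kept their call with any 1 array left out and 18 in all the other settings, and none turned sign. Of the uncalled pairs, 10 were called in at least 1 setting. With 1 array left out, the count of members called ran from 2 to 6 in pretreated cells at 3 h, from 2 to 4 at 0 h, from 0 to 1 between pretreated and naive cells at 6 h and from 0 to 2 for the difference of the 6 h responses. In parentheses below stand the calls over all genes in the same fit, or over all features where these were fitted. A single additive term for the array set gave 1 call for pretreated cells at 6 h (1395). It gave 0 for the difference of the 3 h responses (10) and 4 for that of the 6 h responses (245). In the main fit the difference of the 6 h responses had 6 genes called higher and 23 lower. The fit with a block for arrays numbered 1 to 4 and 5 to 8 within each set gave 8 for pretreated cells at 3 h (1272). It gave 3 for the difference of the 6 h responses (302). Set 1 alone gave 1 call at 0 h (52) and 0 between pretreated and naive cells at 6 h (29). Set 2 alone gave 1 at 0 h (74) and 0 for the difference of the 3 h responses (8). All 35557 features gave 0 between pretreated and naive cells at 6 h (54). The difference of the 6 h responses had 0 calls with all features (47), quantile normalization (35) or array weights (24). It had 2 with trend and robust variances (40), and array weights gave 2 for pretreated cells at 3 h (245). The cause of these shifts was not tested. Signs that turned belong to uncalled values near 0. With quantile normalization, pretreated minus naive at 3 h was 0.0011 for Mavs and 0.00029 for Adar. With 1 array left out that difference ran from -0.07 to 0.26 for Rigi, -0.43 to 0.57 for Cgas, -0.12 to 0.03 for Mavs, -0.19 to 0.08 for Eif2ak2 and -0.12 to 0.05 for Adar, and at 6 h from -0.19 to 0.11 for Adar. The change of pretreated cells at 6 h ran from -0.11 to 0.4 for Cgas and -0.08 to 0.04 for Mavs, and the difference of the 3 h responses from -0.7 to 0.3 for Cgas and -0.05 to 0.1 for Mavs. The labels give no replicate numbers shared between groups, and the block reads only the order of the arrays in each set. The 2 arrays per group and set limit the precision.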
